A study of Homo sapiens with 12 samples.

Results

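The genes described here encode the subunits of the integrins and the chains of the laminins. Members were chosen by symbol among the protein-coding genes of the expression files, as integrin alpha and beta subunits and laminin alpha, beta and gamma chains, by a rule that reads symbols only. The choice was made with earlier results of these data known. Of 57815 genes, 37 are described, with 26 integrin genes (18 alpha and 8 beta subunits) and 11 laminin genes. RNA-sequencing (RNA-seq) was performed on A549, H2023 and H460, established human non-small cell lung cancer (NSCLC) lines. A549 and H2023 are lung adenocarcinoma and H460 is lung large cell carcinoma. All libraries, controls included, came from lines labelled as KEAP1 mutation positive, and KEAP1 is the protein that targets the transcription factor NRF2 for degradation. Cells received control siRNA or NRF2 siRNA and RNA was collected at 48 h, which gave 6 groups of 2 libraries. Controls were biological duplicates, whereas each NRF2 siRNA group paired a library of siRNA number 28 (library 0) with one of number 30 (library 1), and the spread within it held the difference between those siRNAs. A549 was grown in high glucose and sequenced after removal of ribosomal RNA, and H2023 and H460 were grown in low glucose and sequenced after polyA selection, so a difference in level between A549 and the others cannot be told apart from the protocol or the medium.

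Integrins are receptors in the plasma membrane, each made of 1 alpha and 1 beta subunit, that bind the extracellular matrix outside the cell and link it to the cytoskeleton and to signalling kinases inside. Laminins are secreted heterotrimers of 1 alpha, 1 beta and 1 gamma chain that build the basement membrane under epithelia, and a trimer is named after its chains, so that laminin-511 joins the products of LAMA5, LAMB1 and LAMC1. In lung epithelium, the main laminin receptors pair the ITGA3 product with that of ITGB1 and the ITGA6 product with that of ITGB1 or ITGB4.

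Levels are given as FPKM, fragments per kilobase of transcript scaled to the number of mapped fragments, which are scaled to transcript length, and the number of reads behind a value is unknown. Summed FPKM ranged from 638815 to 1159274 per library. The targeted gene, NFE2L2, which encodes NRF2, was lower after NRF2 siRNA in each line and passed the test, with log2 differences of -2.24 (A549), -3.86 (H2023) and -3.60 (H460). All 6 epithelial marker genes were at 1 FPKM or more in both controls of A549 and H2023 and 4 of 6 in those of H460, where EPCAM and CDH1 were not, while none of 4 lung epithelial markers reached 1 FPKM in both controls of any line. In H2023, mitochondrial transcripts took 11.97% and 18.12% of summed FPKM in the controls and 17.35% and 22.76% after NRF2 siRNA. They took 1.56% or less in every library of A549. In H460, mitochondrial transcripts took 8.56% and 13.1% of summed FPKM in the controls and 20.8% and 26.0% after NRF2 siRNA. In the same line the summed level of 5 leukocyte markers was 1.80 to 5.51 FPKM in the controls and 17.6 to 19.8 after NRF2 siRNA, nearly all of it CD14, with PTPRC at 0.015 FPKM or less, and that of 4 fibroblast markers was 5.37 to 5.61 and 11.5 to 14.6. The leukocyte markers summed to 0.78 to 1.44 FPKM in the controls and 3.18 to 3.21 after NRF2 siRNA in A549, and to 1.12 to 1.22 and 1.41 to 1.57 in H2023. The sum of 3 platelet markers was 8.56 to 9.15 and 11.9 to 27.2 FPKM in H2023, most of it PF4, and 0.28 to 0.75 and 1.30 to 1.46 in H460. Lung epithelial and endothelial markers summed to 1.41 FPKM or less in every library. The summed level of the epithelial markers was 1154 to 1346 FPKM in the controls and 1763 to 2633 after NRF2 siRNA in H460, and 2810 to 3386 and 6012 to 6336 in H2023, while its ranges overlapped in A549. On average over the lines 3 of 5 epithelial markers tested rose, where 15.2% of all genes were higher, all of them keratin genes, KRT8 by 0.78 ± 0.16, KRT18 by 0.60 ± 0.12 and KRT7 by 0.51 ± 0.13 on the log2 scale. The 3 mesenchymal markers summed to 344 to 380 FPKM in the controls of A549, 365 to 523 in those of H2023 and 1113 to 1214 in those of H460. The ranges after NRF2 siRNA overlapped those of the controls in each line. None of the mesenchymal markers tested was called in any line or on average. The part of any of these in the results was not tested. RNA was taken from whole cultures, in which fewer cells that express a gene and less of its RNA per cell cannot be told apart.

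A total of 28 members were expressed in at least 1 line, that is, at 1 FPKM or more in at least 2 of its 4 libraries, with 19 in A549, 25 in H2023, 22 in H460 and 18 in every line. The 9 others, ITGA11, ITGA2B, ITGA8, ITGA9, ITGAD, ITGAX, ITGB3, ITGB7 and LAMB4, stayed at 1.68 FPKM or less in all libraries. Among them were the subunits typical of platelets (ITGA2B and ITGB3) and some of those typical of leukocytes (ITGAD, ITGAX and ITGB7). Other leukocyte subunits passed this filter, ITGA4, ITGAL and ITGAM in H2023 at 2.21 FPKM or less, ITGB2 in A549 and in H2023, where it was highest at 4.14 FPKM, and ITGAE in every line at 8.65 to 18.4 FPKM. ITGB1, the beta subunit shared by the largest group of integrins, was the highest member of the integrin family in every library. Its level per length was 628 and 599 FPKM in the controls of A549, 975 and 1181 in those of H2023, and 408 and 294 in those of H460. ITGB1 made up 66.8% to 82.3% of the summed FPKM of the beta subunits over the 12 libraries, and ITGB5, a partner of ITGAV that binds vitronectin, 13.9% to 30.4%.

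**Figure D1:**
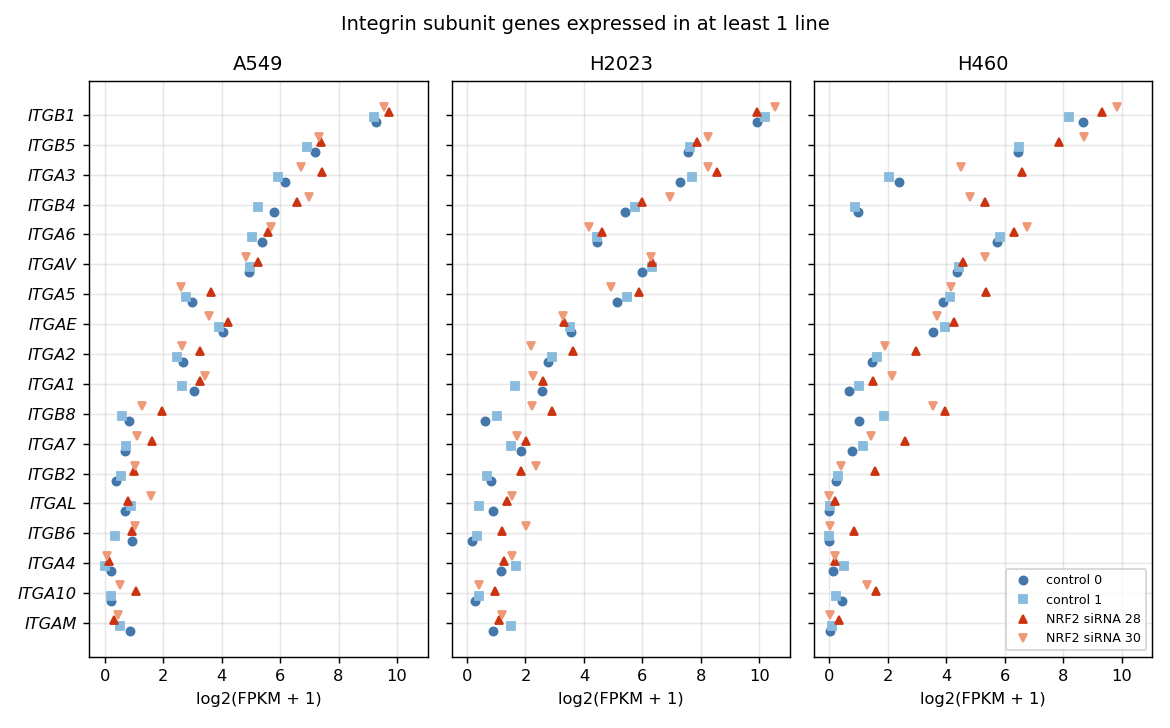
Level of each expressed integrin gene as log2(FPKM + 1) on the horizontal axis, with 1 panel a line and 1 symbol a library (blue for controls, red for NRF2 siRNA). ITGB1 lies at the top of each panel, and in H460 the ITGA3 and ITGB4 libraries of NRF2 siRNA lie far to the right of the controls.

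The alpha subunit that led differed between lines. ITGA3 held 39.6% and 38.4% of summed alpha subunit FPKM in the controls of A549 and 51.4% and 54.5% in those of H2023. In the controls of H460, ITGA6 led with 50.0% and 48.2% and ITGA3 held 4.03% and 2.68%. ITGAV, the partner of several RGD-binding beta subunits, held 16.3% to 21.0% in the controls of all lines. The laminin genes were also unequal between lines. LAMA5 was the main alpha chain gene of A549, with 93.1% and 92.5% of summed alpha chain FPKM in the controls, and of H2023, with 64.7% and 69.1%. H460 alone expressed LAMA1, a chain typical of embryonic basement membranes, at 47.0 and 26.8 FPKM in the controls against 0.12 FPKM or less in all libraries of A549 and H2023. LAMA1 took 52.6% and 37.2% of H460 alpha chain FPKM in the controls and LAMA5 44.8% and 57.6%.

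H2023 and H460 shared the polyA protocol and the medium, so their control levels were compared directly. Of the 22 members tested, 15 were higher and 3 lower in H2023 than in H460, 18 in all, where 50.1% of all genes tested were called (25% higher, 25.1% lower). ITGA3 was 154 and 206 FPKM in the H2023 controls and 4.25 and 3.12 in the H460 controls, a log2 difference of 5.27 ± 0.20 (SE, n = 2 a group, adjusted p = 8.6e-06 by limma with Benjamini-Hochberg adjustment). ITGB4 was 41.2 and 53.3 against 0.96 and 0.82 FPKM, a difference of 4.66 ± 0.22 (adjusted p = 2.06e-05). Both genes were separated by more than an order of magnitude in every pair of libraries. The genes lower in H2023 were LAMA1 (-5.18 ± 0.26), LAMC1 (-1.77 ± 0.11), at 135 and 141 against 462 and 485 FPKM, and ITGA6 (-1.35 ± 0.15). LAMA3 and LAMB3, an alpha and a beta chain gene of epithelia, were higher in H2023 by 2.98 ± 0.15 and 2.23 ± 0.19. LAMA4, an alpha chain gene of vessels and mesenchyme, was at 5.61 and 5.59 against 0.01 and 0.15 FPKM (2.61 ± 0.15), and ITGA4, an alpha subunit best known from leukocytes, at 1.25 and 2.21 against 0.10 and 0.41 (1.11 ± 0.22). LAMA1, LAMA4 and ITGA4 passed the filter through the controls of 1 line alone and had to differ. With 1 FPKM required in a control of each of these lines, which left out ITGB4 as well, 12 of 18 members were higher and 2 lower (47.2% of all genes called). Neighbouring levels that did not pass the test were those of LAMB1 (0.14 ± 0.15, adjusted p = 0.464), ITGAE, ITGB8 and LAMC3 (0.50 ± 0.18, adjusted p = 0.0566). LAMA5 was higher in the H2023 controls by 0.40 ± 0.14 (adjusted p = 0.0463), and the sign of that difference was the opposite in the NRF2 siRNA libraries, at -0.93. Against A549, 14 of 22 members differed in H2023 (59.3% of all genes) and 15 of 22 in H460 (61% of all genes), and with the same requirement 10 of 16 (54.5%) and 12 of 15 (57%).

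**Figure D2:**
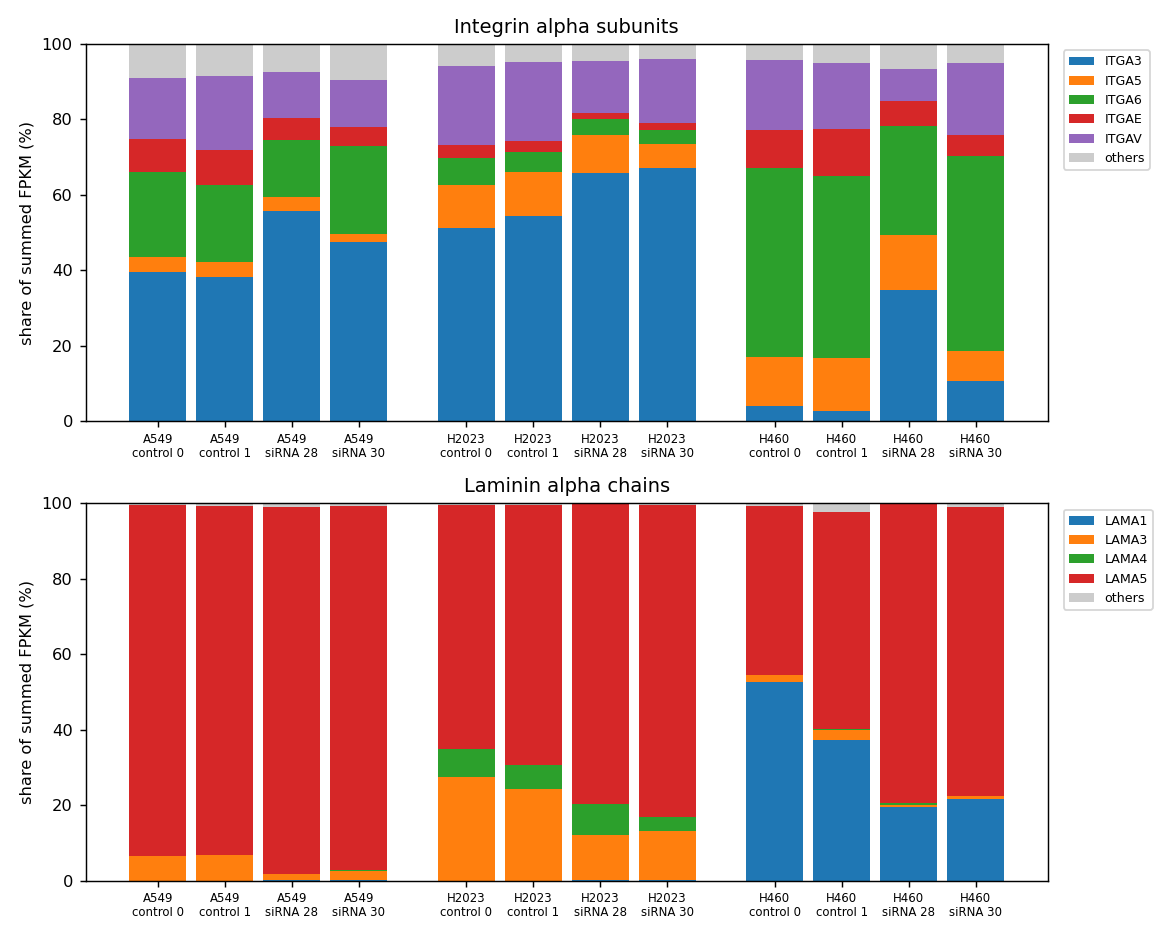
Share of summed FPKM (%) held by each integrin alpha subunit gene (top) and each laminin alpha chain gene (bottom), with 1 bar a library and genes that never reach 5% joined as others. In H460 the ITGA3 share is 4.03% and 2.68% in the controls and 34.7% and 10.6% after NRF2 siRNA, and the LAMA5 share lies at 79.3% and 76.6% after NRF2 siRNA against 44.8% and 57.6%.

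To describe what NRF2 siRNA did to these genes, control and NRF2 siRNA libraries were compared in each line. In H460, 9 of 22 members tested rose and 1 fell, where 14% of all genes were called (7.12% higher, 6.86% lower). The largest differences were those of the integrin subunit genes ITGB4, ITGA3 and ITGB8 and of the laminin chain gene LAMA5. No member was called in A549 (0 of 19, against 0.676% of all genes) or H2023 (0 of 25, against 0.91%). At an unadjusted p under 0.05, 7 of 19 members were higher and 1 lower in A549 (13.3% of all genes in either direction), and 11 of 25 were higher and 2 lower in H2023 (16.9%). The median log2 difference of the members was 0.31, 0.28 and 1.01 in A549, H2023 and H460, beside 0.02, 0.02 and -0.01 over all genes tested. A gene that reached 1 FPKM in the NRF2 siRNA libraries alone passed the filter through the group where it was high and had to differ, so these counts and medians are descriptions. Members of that kind were ITGA7, ITGB2 and ITGB8 in A549, ITGAL, ITGB2 and ITGB6 in H2023, and ITGA10 and ITGB4 in H460. In fits that also required 1 FPKM in at least 1 library of each arm, 7 of 20 members rose and 1 fell in H460 (12.3% of all genes), and no member was called in A549 (0.465%) or H2023 (0.72%). At an unadjusted p under 0.05 there were then 4 higher and 1 lower of 16 in A549 (12% of all genes) and 7 higher and 2 lower of 22 in H2023 (15.5%), and the medians were 0.20, 0.17 and 0.93. With no filter on low values, no member and no gene was called in H460, with 12 of 37 members at an unadjusted p under 0.05 (18.8% of all genes). With both controls of H460 in the fit the 10 calls were made, and without control 0 or without control 1 no member was called there, with 22 and 21 members tested (0% and 0.0381% of all genes called). Without 1 NRF2 siRNA library, the spread came from the 2 controls alone. Calls made in A549 and H2023 in such fits are not read as effects. A fit of all 12 libraries called 1 of 19 members in A549 (1.01%), 5 of 25 in H2023 (5.32%) and 14 of 22 in H460 (34.1%).

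ITGB4, the beta subunit that anchors hemidesmosomes by its long cytoplasmic tail (ENSG00000132470.9, chr17:73717408-73753899, plus strand, GRCh37), had the largest difference in H460. It was at 0.96 and 0.82 FPKM in the H460 controls, both under the filter, and at 38.8 and 27.2 after NRF2 siRNA, a difference of 4.15 ± 0.29 (SE, n = 2 a group, adjusted p = 0.00601). In A549 it was at 54.6 and 36.5 against 93.8 and 126 FPKM (1.27 ± 0.25, adjusted p = 0.143), and in H2023 at 41.2 and 53.3 against 62.4 and 121 (0.88 ± 0.34, adjusted p = 0.287). Both NRF2 siRNA libraries were above both controls in every line. ITGA3, the alpha subunit of the main laminin receptor of lung epithelium (ENSG00000005884.13, chr17:48133332-48167845, plus strand), was at 4.25 and 3.12 FPKM in the H460 controls and 94.9 and 21.8 after siRNA 28 and 30, a difference of 3.33 ± 0.63 (adjusted p = 0.0275). It was at 71.4 and 59.5 against 172 and 104 FPKM in A549 (1.02 ± 0.26, adjusted p = 0.225), and at 154 and 206 against 377 and 304 in H2023 (0.92 ± 0.21, adjusted p = 0.144). Its groups did not overlap in any line. ITGA6, another laminin-binding alpha subunit, was at 52.7 and 56.1 FPKM in the H460 controls and 79.4 and 106 after NRF2 siRNA (0.75 ± 0.23, adjusted p = 0.0794), while in H2023 its groups overlapped at 17.0 to 23.7 FPKM. In A549 it was at 40.8 and 31.8 against 46.6 and 50.7 FPKM.

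ITGB8, which pairs with ITGAV in a receptor of latent TGF-beta (ENSG00000105855.5, chr7:20370325-20455377, plus strand), was a low gene that rose in H460. Its level was 1.01 and 2.67 FPKM in the H460 controls and 14.5 and 10.7 after NRF2 siRNA (2.31 ± 0.37, adjusted p = 0.0212). It went from 0.52 and 1.06 to 6.53 and 3.67 FPKM in H2023 (1.74 ± 0.33, adjusted p = 0.103), and from 0.78 and 0.51 to 2.86 and 1.44 in A549 (0.91 ± 0.27, adjusted p = 0.263). The groups were apart in each line. ITGB5 (ENSG00000082781.7, chr3:124480795-124620265, minus strand) was at 86.3 and 88.1 FPKM in the H460 controls and 229 and 417 after NRF2 siRNA (1.81 ± 0.32, adjusted p = 0.0236). It was at 145 and 119 against 167 and 159 FPKM in A549 and at 186 and 199 against 233 and 299 in H2023, again without overlap. ITGAV, the alpha partner of both, was at 19.5 and 20.5 against 22.6 and 39.3 FPKM in H460 (0.56 ± 0.30, adjusted p = 0.255), and its groups overlapped in A549 (27.4 to 37.2 FPKM) and H2023 (62.5 to 79.6 FPKM). ITGB1 was at 408 and 294 against 639 and 915 FPKM in H460 (1.14 ± 0.30, adjusted p = 0.0546) and did not pass the test. It was at 628 and 599 against 840 and 749 FPKM in A549, and in H2023 its groups overlapped at 959 to 1474. ITGA10, a collagen-binding alpha subunit, was called in H460 at low levels, 0.36 and 0.18 FPKM in the controls and 2.03 and 1.42 after NRF2 siRNA (1.09 ± 0.27, adjusted p = 0.0447), and passed the filter through the NRF2 siRNA libraries alone. It was at 0.16 and 0.17 against 1.09 and 0.44 FPKM in A549 and at 0.22 and 0.34 against 0.94 and 0.34 in H2023, and was tested in neither line.

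The chains of laminin-511 all rose in H460. LAMA5 (ENSG00000130702.9, chr20:60883011-60942368, minus strand), the alpha chain gene of mature epithelial basement membranes, was at 40.0 and 41.4 FPKM in the controls and 214 and 179 after NRF2 siRNA (2.23 ± 0.21, adjusted p = 0.0111). In H2023 it was at 48.3 and 60.2 against 99.8 and 105 FPKM (0.91 ± 0.17, adjusted p = 0.106), and in A549 at 66.7 and 65.7 against 71.9 and 73.4 (0.13 ± 0.12, adjusted p = 0.702). Its groups were apart in every line, with a gap of a few FPKM in A549. LAMB1 (ENSG00000091136.9, chr7:107564244-107643658, minus strand), which supplies the beta chain, was at 86.1 and 70.1 FPKM in the H460 controls and 314 and 273 after NRF2 siRNA (1.90 ± 0.23, adjusted p = 0.0142). It was at 93.3 and 78.9 against 153 and 114 FPKM in H2023 and at 72.0 and 75.5 against 90.5 and 77.5 in A549. Both lines kept NRF2 siRNA libraries above controls, without passing the test (adjusted p = 0.237 and 0.64). LAMC1 (ENSG00000135862.5, chr1:182992555-183114727, plus strand), which supplies the gamma chain, was at 462 and 485 FPKM in the H460 controls and 955 and 1320 after NRF2 siRNA (1.24 ± 0.28, adjusted p = 0.0369). It was at 135 and 141 against 195 and 182 FPKM in H2023, and in A549 its groups overlapped at 85.9 to 94.6. LAMB2, the beta chain gene of laminin-521, was at 51.2 and 55.9 against 196 and 128 FPKM in H460 (1.55 ± 0.27, adjusted p = 0.0227). In H2023 it was at 74.1 and 75.1 against 181 and 108, and in A549 it overlapped at 48.3 to 59.8. LAMA1, the other abundant alpha chain gene of H460, was at 47.0 and 26.8 against 52.7 and 50.3 FPKM (0.52 ± 0.30, adjusted p = 0.275), and its share of alpha chain FPKM there went from 52.6% and 37.2% to 19.6% and 21.6%.

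LAMA3, LAMB3 and LAMC3 had negative log2 differences in H2023. LAMA3 (ENSG00000053747.11, chr18:21269417-21536186, plus strand) was lower after NRF2 siRNA without passing the test, at 4.70 and 4.85 against 1.26 and 1.95 FPKM in A549 (-1.16 ± 0.19, adjusted p = 0.0977) and at 20.5 and 21.1 against 15.2 and 16.6 in H2023 (-0.37 ± 0.17, adjusted p = 0.353). In H460 it was low and overlapped, at 1.63 and 1.89 against 1.09 and 1.83 FPKM. LAMB3 (ENSG00000196878.8, chr1:209788215-209825770, minus strand) was at 24.9 and 26.6 against 10.7 and 16.2 FPKM in H2023 (-0.91 ± 0.24, adjusted p = 0.17) and overlapped in A549 (11.1 to 19.7 FPKM) and H460 (4.20 to 6.39 FPKM). LAMC3 (ENSG00000050555.13, chr9:133884561-133969860, plus strand), a gamma chain gene of restricted expression, was the member that fell in H460, from 13.1 and 13.4 to 4.03 and 4.31 FPKM (-1.46 ± 0.25, adjusted p = 0.0226). In H2023 it was at 22.0 and 16.6 against 9.25 and 4.80 FPKM (-1.38 ± 0.33, adjusted p = 0.148), again without overlap, and in A549 it stayed at 0.26 FPKM or less.

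**Figure D3:**
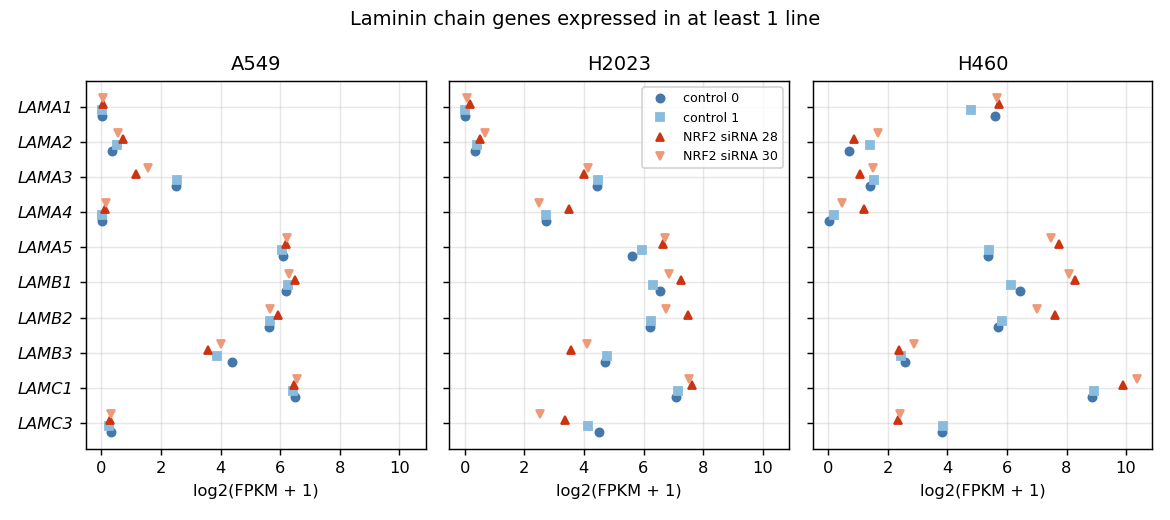
Level of each expressed laminin gene as log2(FPKM + 1) on the horizontal axis, with 1 panel a line and 1 symbol a library (blue for controls, red for NRF2 siRNA). In H460 the NRF2 siRNA libraries of LAMA5, LAMB1, LAMB2 and LAMC1 lie to the right of the controls and those of LAMC3 to the left, while in A549 the LAMA3 libraries of NRF2 siRNA lie to the left.

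Promoter windows of LAMA5, LAMC1 and LAMB1 and of LAMA3 and LAMB3 are shown because the average differences of these genes differed in sign. Windows of 250 bases before to 50 after the start, from RefSeq on GRCh38.p14, were matched by symbol for 26 of 37 members (33 windows). ITGA3, ITGB4, LAMC3 and LAMA1 were among the 11 without one. Gene positions above are on GRCh37, so where a window lies within its gene was not resolved. Levels are per gene, and a window need not be at the only start of its gene. Each window was searched on both strands for TGANNNNGC, the core of the antioxidant response element that NRF2 binds with a small MAF protein, and for TGANTCA, the core of an AP-1 site. The letters of the motifs can overlap. Capitals mark matches to either motif, and sequences read 5′ to 3′ on the strand of the gene. LAMA5 lies at chr20:62367263-62367562 (minus strand), LAMC1 at chr1:183023170-183023469 (plus), LAMB1 at chr7:108003112-108003411 (minus), LAMA3 at chr18:23872770-23873069 (plus), and the LAMB3 window with matches at chr1:209651325-209651624 (minus). LAMB3 had 3 windows, and this one is shown for its matches, while those at chr1:209652280-209652579 and chr1:209652376-209652675 held neither motif.
LAMA5: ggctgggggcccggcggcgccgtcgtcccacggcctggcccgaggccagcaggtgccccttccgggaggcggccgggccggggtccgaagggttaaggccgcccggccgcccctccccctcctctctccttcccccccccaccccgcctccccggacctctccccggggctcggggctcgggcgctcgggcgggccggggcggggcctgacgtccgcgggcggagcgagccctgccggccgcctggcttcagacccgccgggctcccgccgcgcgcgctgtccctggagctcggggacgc
LAMC1: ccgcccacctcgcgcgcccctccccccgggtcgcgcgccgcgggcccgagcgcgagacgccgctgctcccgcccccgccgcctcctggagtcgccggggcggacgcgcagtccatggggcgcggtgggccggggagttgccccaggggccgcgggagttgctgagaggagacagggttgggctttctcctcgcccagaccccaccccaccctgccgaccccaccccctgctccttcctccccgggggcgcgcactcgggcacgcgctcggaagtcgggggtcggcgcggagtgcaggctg
LAMB1: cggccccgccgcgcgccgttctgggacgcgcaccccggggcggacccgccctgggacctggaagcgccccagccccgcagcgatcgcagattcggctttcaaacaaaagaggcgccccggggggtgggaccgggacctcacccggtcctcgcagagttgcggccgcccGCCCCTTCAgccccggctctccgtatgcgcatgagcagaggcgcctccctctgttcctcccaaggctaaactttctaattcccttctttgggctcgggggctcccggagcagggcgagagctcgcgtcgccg
LAMA3: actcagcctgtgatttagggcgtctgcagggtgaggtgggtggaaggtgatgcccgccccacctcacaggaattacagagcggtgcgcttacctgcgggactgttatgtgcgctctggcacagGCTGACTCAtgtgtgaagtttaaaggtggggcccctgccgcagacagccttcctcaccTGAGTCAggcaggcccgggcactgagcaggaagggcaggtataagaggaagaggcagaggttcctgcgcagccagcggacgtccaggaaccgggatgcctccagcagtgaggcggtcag
LAMB3: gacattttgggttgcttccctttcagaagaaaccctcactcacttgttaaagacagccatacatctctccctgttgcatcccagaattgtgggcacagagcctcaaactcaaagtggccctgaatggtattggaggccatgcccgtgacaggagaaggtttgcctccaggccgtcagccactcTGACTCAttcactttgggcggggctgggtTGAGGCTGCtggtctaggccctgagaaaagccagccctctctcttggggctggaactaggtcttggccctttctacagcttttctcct
The LAMA5 and LAMC1 windows, with a GC content of 82.7% and 79.0%, held neither motif, and the LAMB1 window held 1 match to the antioxidant response element core. LAMA3 held 1 match to that core and 2 to the AP-1 core, of which 1 overlapped with it, and the LAMB3 window shown held 1 match to each. The AP-1 core was found in windows of 3 of the 26 members, LAMA3, LAMB3 and ITGA5, that is, in 9.1% of member windows and 7.71% of all 35116 windows. The antioxidant response element core was found in windows of 17 members, in 51.5% of member windows and 41.8% of all windows. A match is a match of letters only.

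The average over the lines and the differences between lines were tested in 1 fit of the 12 libraries. On average, 12 of the 18 members expressed in every line rose and 1 fell, where 29.7% of all genes were called (15.2% higher, 14.5% lower). ITGB4 (2.10 ± 0.19, adjusted p = 6.42e-05), ITGA3 (1.76 ± 0.30), ITGB8 (1.65 ± 0.21) and LAMA5 (1.09 ± 0.09) had the largest averages. ITGB5, LAMB1, LAMB2, LAMC1, ITGB1, ITGA1, ITGA6 and ITGA7 also rose, by 0.38 to 0.90. ITGA1, a collagen-binding subunit, was at 7.35 and 5.24 against 8.67 and 9.82 FPKM in A549, 4.90 and 2.146 against 5.01 and 3.80 in H2023, and 0.60 and 1.03 against 1.84 and 3.41 in H460. ITGA7, which binds laminin, was at 0.63 and 0.66 against 2.04 and 1.16 FPKM, 2.57 and 1.84 against 3.06 and 2.28, and 0.73 and 1.20 against 5.04 and 1.71 in the same order. The libraries of both genes were apart in A549 and H460 and overlapped for both in H2023. LAMA3 was the member that fell on average (-0.57 ± 0.12, adjusted p = 0.00635), and LAMB3 did not pass the test (-0.37 ± 0.15, adjusted p = 0.0903). Both NRF2 siRNA libraries were above both controls in all 3 lines for 6 of 18 members, ITGA3, ITGB4, ITGB5, ITGB8, LAMA5 and LAMB1 (8.18% of all genes), and below them in all lines for none (7.2% of all genes). ITGB4 in H460 and ITGB8 in A549 passed the filter through the NRF2 siRNA libraries alone, so their groups had to be apart there. Without A549 siRNA 28, 8 of 16 members tested were called (21.8% of all genes). With 1 FPKM required in a library of each arm of each line, which left out ITGA7, ITGB4 and ITGB8, 9 of 15 members rose and 1 fell (28.4% of all genes).

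The effect of NRF2 siRNA differed between lines for 3 of 18 members, LAMA5 (adjusted p = 0.0097), ITGB4 (adjusted p = 0.0201) and LAMB1 (adjusted p = 0.0267), by limma's moderated F test, where 2.51% of all genes were called. The effect in H460 exceeded that in A549 by 2.10 ± 0.22 for LAMA5, 2.88 ± 0.45 for ITGB4, 1.72 ± 0.27 for LAMB1 and 1.19 ± 0.24 for LAMC1, the 4 of 18 members called in that pair of lines (1.42% of all genes were called higher). It exceeded that in H2023 by 3.27 ± 0.45 for ITGB4, 1.32 ± 0.22 for LAMA5 and 1.29 ± 0.27 for LAMB1, 3 of 18 members (1.3% of all genes were called higher). None of 18 members differed between H2023 and A549 (0.00864% of all genes), with 2 members at an unadjusted p under 0.05 (5.21% of all genes), LAMA5 and LAMA3. For ITGA3, whose difference between H460 and A549 was 2.31 ± 0.74, the F test gave an adjusted p of 0.123. The 3 calls fell to 0 without A549 control 0, A549 control 1 or H460 control 0, and to LAMA5 alone without H460 control 1, H2023 control 0 or H2023 control 1. They rose to 5 without H2023 siRNA 28 (5.48% of all genes), while in the fits with 0 or 1 call 0.0261% to 0.671% of all genes were called. With 1 FPKM required in a library of each arm, LAMA5 and LAMB1 were called and ITGB4 was not tested (2.06% of all genes).

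**Figure D4:**
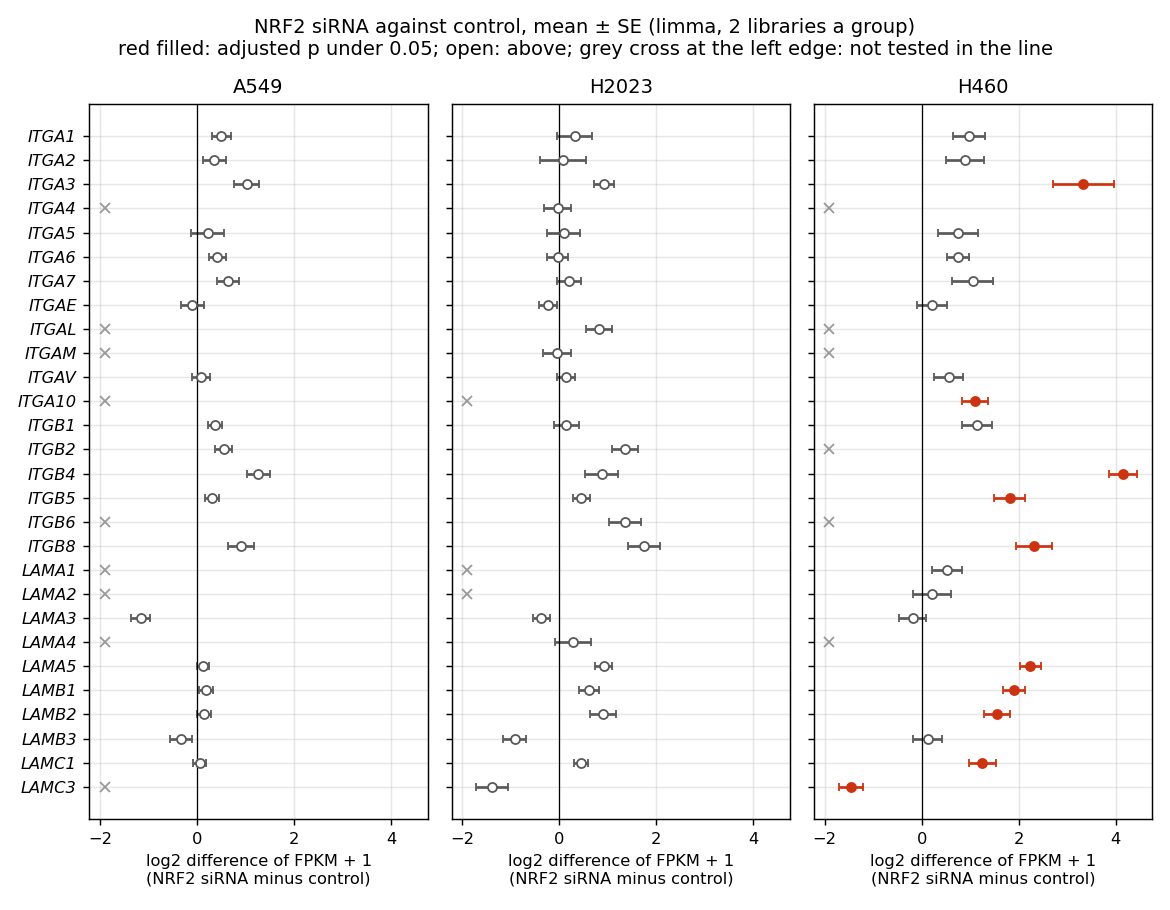
Log2 difference of FPKM + 1 between NRF2 siRNA and control on the horizontal axis for each expressed member in each line, as mean ± SE from limma (n = 2 libraries a group), with red filled points at an adjusted p under 0.05. The called points are all in H460, with 9 above 0 and LAMC3 below, and crosses at the left edge mark members not tested in a line.

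The siRNAs were compared with each other in the 6 NRF2 siRNA libraries, with line as a covariate. In every line siRNA 28 was library 0 and siRNA 30 was library 1. A difference between the siRNAs therefore cannot be told apart from one between library numbers. No member of 28 tested was called, nor any gene (0% of all genes), while 7 members were higher with siRNA 28 and 1 with siRNA 30 at an unadjusted p under 0.05 (18.2% of all genes). ITGA5, which with ITGB1 forms the fibronectin receptor, was at 11.3 and 5.04 FPKM with siRNA 28 and 30 in A549, 57.7 and 29.5 in H2023, and 39.8 and 16.8 in H460, a difference of 1.06 ± 0.13 (n = 3 a group, adjusted p = 0.123 by limma). ITGA2, a collagen-binding subunit, was at 8.51 and 5.20, 11.5 and 3.61, and 6.82 and 2.76 FPKM in the same order (1.04 ± 0.21, adjusted p = 0.137). For both genes siRNA 28 was above all controls of its line, and siRNA 30 was below both controls of ITGA5 in A549 and H2023 and of ITGA2 in H2023. The siRNAs had the same order in all 3 lines for 9 members with siRNA 28 higher (24.2% of all genes), among them ITGA3, ITGB8, LAMB1 and LAMB2, and for 2 with siRNA 30 higher, LAMA3 and LAMB3 (18.1% of all genes). In the fit of all 12 libraries with siRNA as a term, ITGA5, ITGA2 and LAMB2 were called, 3 of 28 beside 6.66% of all genes.

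**Figure D5:**
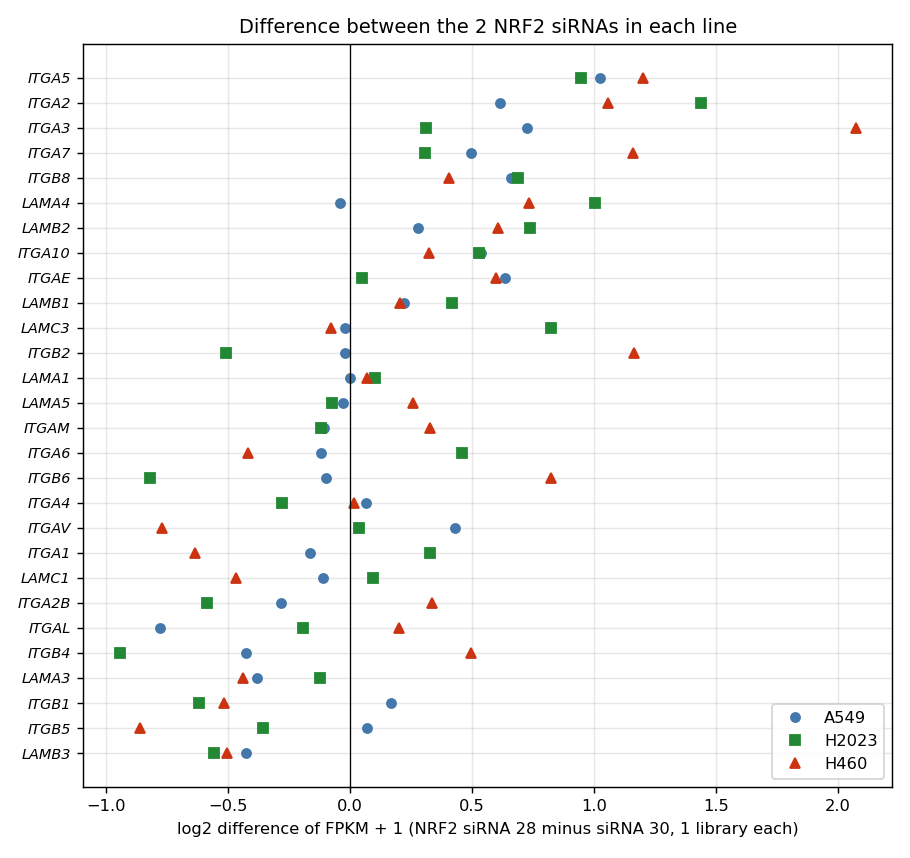
Log2 difference of FPKM + 1 between NRF2 siRNA 28 and siRNA 30 on the horizontal axis for each of 28 members tested, with 1 symbol a line, each from 1 library a siRNA. ITGA5 and ITGA2 lie above 0 in the 3 lines, LAMA3 and LAMB3 below, and ITGA3 in H460 is the point farthest to the right.

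Other genes of cell adhesion were read from the same fits, by lists set out with the members and with earlier results of these data known. Among 24 focal adhesion genes, 21 were tested in H460, where the kinase gene PTK2 (1.33 ± 0.24) and the tensin gene TNS2 (1.20 ± 0.26) rose and FERMT3 (-1.80 ± 0.25), which encodes the kindlin of blood cells, and SRC (-1.26 ± 0.24) fell, 4 of 21 beside 14% of all genes. FERMT3 was at 81.5 and 110 FPKM in the H460 controls and 23.5 and 29.5 after NRF2 siRNA, and at 1.31 FPKM or less in the other lines. The list's median in H460 was -0.15. Of 12 other basement membrane genes tested in H460, COL4A5 (1.61 ± 0.24) and AGRN (1.50 ± 0.22) rose and none fell, 2 of 12 beside 7.12% of all genes higher, with a median of 0.50. AGRN, the heparan sulfate proteoglycan agrin that binds laminin, was at 19.6 and 18.9 against 61.5 and 51.4 FPKM. None of either list was called in A549 or H2023.

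Among ligands of integrins other than laminins, the vitronectin gene VTN was at 3.76 and 4.25 FPKM in the H460 controls and 51.2 and 86.5 after NRF2 siRNA (3.76 ± 0.31, adjusted p = 0.00965). CCN1, a matricellular ligand, rose in H460 (1.62 ± 0.23) and in H2023 (3.18 ± 0.21), where it went from 9.38 and 11.7 to 117 and 91.1 FPKM. These were 2 of 7 ligand genes tested in H460, where 7.12% of all genes were higher. In H2023, CDH1, the E-cadherin ligand of the ITGAE integrin, also rose, from 12.6 and 8.05 to 65.0 and 58.3 FPKM (adjusted p = 0.028), for 2 of 11 beside 0.91% of all genes called. In A549 the osteopontin gene SPP1 fell (-2.20 ± 0.21), for 1 of 8 beside 0.676% of all genes called, from 615 and 504 to 142 and 103 FPKM. Of 7 genes for hemidesmosome proteins and other laminin receptors tested in H460, BCAM, a receptor of LAMA5 laminins, was the 1 called, a share near that of all genes (14%). It was at 0.96 and 0.74 FPKM in the controls and 10.9 and 7.37 after NRF2 siRNA, so it passed the filter through the NRF2 siRNA libraries alone and had to differ. Of 7 latent TGF-beta genes, LTBP3 (2.18 ± 0.24) and TGFB3 (1.14 ± 0.28) rose in H460, where 7.12% of all genes were higher. LTBP1, at 0.22 and 0.56 against 2.71 and 1.73 FPKM, was also called there, but it and LTBP2 passed the filter through the NRF2 siRNA libraries alone. None of the list was called in A549 or H2023.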

How the data were processed

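RNA-seq was performed on 12 libraries, paired-end on an Illumina sequencer per the study's methods. The study's methods name TopHat and Cufflinks on hg19, whereas the submitters' processing notes name cutadapt 1.15, STAR 2.5.3a and Cuffnorm, so the aligner behind the files is uncertain. The authors deposited FPKM values per gene and library, that is, with length and library size divided out. Their DESeq2 tables, which hold the authors' own comparison, were not used. No counts were used, and read depth is unknown, so no counting interval is given. Low values stepped in a way that put the relative depth of libraries within a line at 92.5% to 107% of that line's first control.

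Values under 1e-06 FPKM, 12710 in all, were read as 0. Symbols and whole-gene positions came from GENCODE lifted to GRCh37 (96.0% of identifiers matched), and exons were not resolved. Antisense, pseudogene and divergent transcripts and ITGBL1 were left out, and 1 gene that met the rule is not reported here. Genes at 1 FPKM or more in at least 2 of the libraries of a fit were tested (in the fits over lines, in at least 2 libraries of every line) with limma 3.58.1 under R 4.3.3 on log2(FPKM + 1), which understates changes of low genes, with the prior variance following the mean, Benjamini-Hochberg adjustment over all genes tested and a threshold of 0.05. Each line was fitted alone with 2 residual degrees of freedom, the average and the difference between lines in 1 fit with 6 group means, control levels in the 6 control libraries, and siRNA 28 against 30 in the 6 NRF2 siRNA libraries. In simulated data known changes were recovered without bias, but more of the calls were false than the threshold allows, so adjusted p-values near the threshold are too optimistic. Values for every library are given for members called in a test of NRF2 siRNA against control and for LAMA3, LAMB3, the chains of laminin-511 and the laminin receptor subunits, and genes of other lists are named where called, at most 4 a list. The members and lists were chosen with earlier results of these data known. Gene levels with near-identical copies can be split by the estimator. Endothelial marker PECAM1 was not matched. Alternatives were another pseudocount, filter, scaling and prior, each library left out, 1 fit of 12 libraries, a replicate block and, added after the data were seen, 1 FPKM in a library of each arm or in a control of each line compared. Figures used matplotlib 3.10.9.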

Additional observations from a re-analysis of the deposited data

Results flagged for a closer look

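The effect of NRF2 siRNA differed between lines by limma's moderated F test over all genes for 3 members. For LAMA5, with an adjusted p of 0.0097, the log2 differences in A549, H2023 and H460 were 0.13, 0.91 and 2.23. The second was ITGB4, with an adjusted p of 0.0201 and differences of 1.27, 0.88 and 4.15. Both of its H460 controls were under 1 FPKM, so it passed the filter there through the NRF2 siRNA libraries alone, and it was not tested where 1 FPKM was required in a library of each arm. For LAMB1 the adjusted p was 0.0267 and the differences were 0.18, 0.61 and 1.90. All 3 members were higher after NRF2 siRNA in both libraries of every line.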

How the results depend on the processing

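In H460, 10 to 12 members were called under every setting run on all its libraries other than the fit of 12 libraries, with 14, the fit with no filter on low values, with 0, and the fit with 1 FPKM in a library of each arm, chosen after seeing the data, with 8. A fit without 1 library left 1 in its group, and the spread came from the other groups of the fit. Leaving out 1 library at a time gave 0 to 2 calls in A549 (0.301% to 2.01% of all genes), 0 to 7 in H2023 (0% to 11.3%), 0 to 12 in H460 (0% to 24.4%), 8 to 15 for the average (20.2% to 33.5%) and 0 to 5 for the difference between lines (0.0261% to 6.79%). Control levels of A549 and H2023 then differed for 9 to 15 members (40.1% to 64.3% of all genes), with 9 without H2023 control 1. A549 had 1 call (LAMA3) in the fit of 12 libraries, which gave 5 in H2023 and 3 between the siRNAs. Replicate numbers were not treated as pairs, since the labels pair no libraries and NRF2 siRNA libraries 0 and 1 held different siRNAs. The correlation of same-numbered deviations came to -0.03 (A549), 0.31 (H2023) and 0.16 (H460). Same-numbered libraries thus shared part of their deviations in H2023 and H460. With the replicate number as a block, 0, 5 and 12 members were called in A549, H2023 and H460 (0.648%, 5.06% and 23.6% of all genes), 12 on average (31.3%) and 3 for the difference (0.657%). Among members whose values are given for every library, log2 differences that changed sign with 1 library left out spanned -0.13 to 0.30 for ITGAV and -0.0034 to 0.11 for LAMC1 in A549, -0.27 to 0.19 for ITGA6, -0.0307 to 0.31 for ITGAV, -0.13 to 0.77 for ITGA1 and -0.16 to 0.46 for ITGB1 in H2023, and -0.40 to 0.0384 for LAMA3 and -0.13 to 0.38 for LAMB3 in H460. Other members changed sign too, among them ITGA5 in A549 and H2023 and ITGA2 and LAMA4 in H2023. ITGA2 in H2023 was at 0.79 with siRNA 28 alone and -0.64 with siRNA 30 alone. None of these was called. ITGA6 in H2023 was 0.0467 without mitochondrial transcripts, a scaling that moved the all-gene median in H460 from -0.01 to 0.19. The control level of LAMB1 in H2023 minus H460 spanned -0.0055 to 0.29 with 1 library left out. In the NRF2 siRNA libraries that difference was -0.23 for ITGB5, -0.15 for ITGA7, -0.93 for LAMA5, -1.15 for LAMB1 and -0.18 for LAMB2, and over both treatments -0.26 for LAMA5 and -0.50 for LAMB1. The causes were not tested. With 2 libraries a group and no read counts, small differences of low genes could not be resolved.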
